A study of Mus musculus with 2 samples.

Results

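Lef1, Tcf7, Satb1, Klf2, S1pr1, Bach2, Il7r and Dapl1 are expressed by naive and recirculating T cells. Their rows were read by gene symbol, 8 of the 32285 genes counted, and followed through each cell type of CD45+ cells sorted from MOC2 tumours, which grow from a mouse oral cancer cell line injected under the skin. The tumour hosts were female C57BL/6 mice, 6 to 7 weeks old. The Momordicine-I group received Momordicine-I (M-I), a compound of bitter melon, at 30 mg/kg into the peritoneum each day, dissolved in DMSO and Captisol, and the Vehicle group received the solvent. Each arm had 10 mice, and tumours of 3 mice per arm were pooled, stained with propidium iodide and CD45-FITC antibody and sorted into 1 library. With 1 library per group there is no replicate check and no test. Every interval below is a 95% interval that covers counting error only, and each ratio compares these libraries.

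Naive T cells circulate between blood, lymph and lymphoid organs until they meet antigen. TCF1, the product of Tcf7, and LEF1 bind DNA through the same kind of HMG domain and act with FOXO1, KLF2 and BACH2 to hold that state. KLF2 switches on S1pr1, the receptor for sphingosine 1-phosphate that lets T cells leave lymphoid organs, and FOXO1 drives Il7r, the receptor chain for the survival cytokine IL-7. T cells that take up residence in tissue lower Klf2 and S1pr1.

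The M-I library held 4693 barcodes and 41804810 UMIs (unique molecular identifiers, one per captured mRNA), and the Vehicle library held 3642 barcodes and 33998491 UMIs. Barcodes with at least 200 genes and at most 10% mitochondrial UMIs numbered 4370 in the M-I library and 3364 in the Vehicle library, with medians of 5002 and 5760 UMIs. Of the deposited barcodes, 10 occurred in both libraries, and none was a gated T cell in both. A cell was placed in the lineage with the largest share of its marker genes detected, with at least 2 detected, and none of the 8 genes was a marker. T cells gated on Cd3d, Cd3e, Cd3g, Trac, Trbc1 and Trbc2 numbered 320 of 4370 M-I cells (7.32%, 6.57 to 8.14%) and 344 of 3364 Vehicle cells (10.2%, 9.22 to 11.3%). All 6 markers were detected in the T cells of both libraries, and their summed level, in counts per 1000000 UMIs of the summed cells (CPM), was 2762 CPM in M-I and 3218 CPM in Vehicle T cells. Regulatory T cells (Treg) were T cells with a Foxp3 UMI. Gamma-delta T cells had a Trdc or Tcrg-C1 UMI and no Trac or Foxp3 UMI. Of the rest, CD4 T cells had Cd4 without Cd8a or Cd8b1, and CD8 T cells had Cd8a or Cd8b1 without Cd4. A missed transcript can thus place a cell in another subset. Trac was detected in 60.9% of M-I and 81.1% of Vehicle T cells, and the part of detection in the subset shares was not tested. The T cells differed in make-up. Gamma-delta T cells were 99 of the M-I T cells (30.9%, 25.9 to 36.3%) and 42 of the Vehicle T cells (12.2%, 8.94 to 16.1%). CD4 T cells were 14.7% of M-I and 25.6% of Vehicle T cells, Treg were 14.1% and 24.4%, and CD8 T cells were 5.62% and 10.2%. T cells in none of these subsets made up 34.7% of M-I and 27.6% of Vehicle T cells.

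In gated T cells, 5 of the 8 genes were at least 1.5-fold lower in the M-I library: Lef1, Tcf7, Satb1, Bach2 and Dapl1. In these cells 9.39% of the 9788 genes with at least 20 UMIs over both libraries were lower by that much. None of the 8 genes was at least 1.5-fold higher, against 8.02% of all genes tested. At a limit of 2-fold, Lef1 and Dapl1 were lower (3.18% of all genes tested) and none was higher (2.91%), and with at least 50 UMIs required the same 5 were lower at 1.5-fold (6.2%) and none higher (5.49%). The median log2 ratio of the 8 genes was -0.83, and that of all genes tested was -0.01. The 8 genes were chosen with earlier results of these data known, so these counts are a description. The Klf2 CPM was the same in both libraries within counting error, and the Il7r CPM was higher in M-I T cells.

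**Figure D1:**
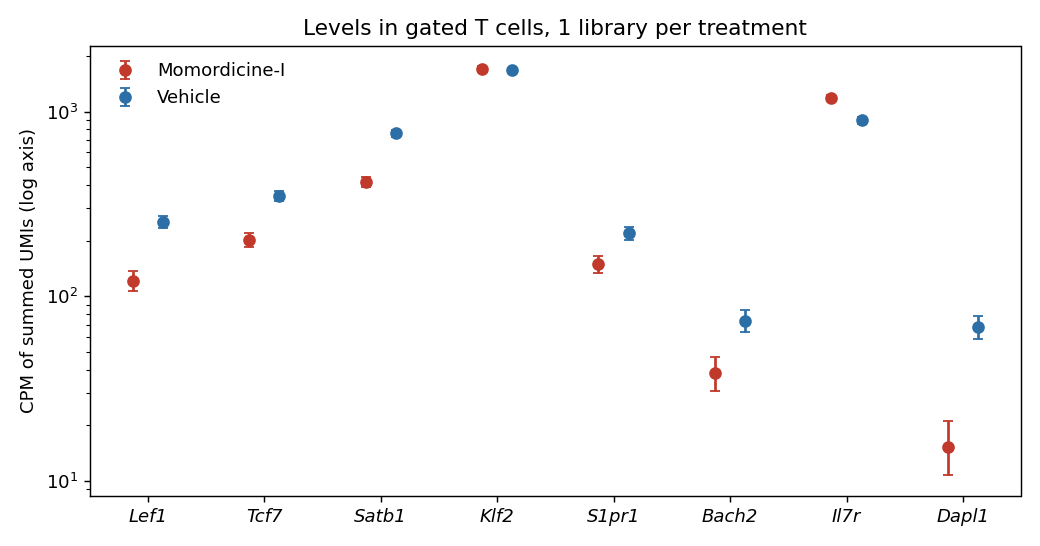
Level of each of the 8 genes in gated T cells, in CPM on a log axis, with M-I in red and Vehicle in blue. Bars on the points are exact Poisson 95% intervals. Lef1, Tcf7, Satb1, S1pr1, Bach2 and Dapl1 lie lower in M-I T cells, Klf2 has overlapping intervals at 1704 CPM (M-I) and 1673 CPM (Vehicle), and Il7r lies higher in M-I T cells.

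The HMG-box factors were both lower. Lef1 (chromosome 3, 131110471 to 131224356, plus strand; all gene positions are from the GENCODE annotation of mm10, where all 8 genes are protein coding) had 286 UMIs or 121 CPM (107 to 136) in M-I T cells and 722 UMIs or 252 CPM (234 to 271) in Vehicle T cells. The ratio was 0.48 (0.417 to 0.551). Tcf7 (chromosome 11, 52252371 to 52283014, minus strand) was at 201 CPM (184 to 220) in M-I and 347 CPM (326 to 370) in Vehicle T cells, a ratio of 0.58 (0.519 to 0.647). The CPM intervals of the libraries did not overlap for either factor. A Lef1 UMI was found in 37.8% of M-I and 64.8% of Vehicle T cells, and a Tcf7 UMI in 53.4% of M-I and 61.3% of Vehicle T cells. Median depth was 6248 UMIs in M-I and 7173 UMIs in Vehicle T cells, so cells were also thinned to 2000 UMIs each, which left 304 M-I and 332 Vehicle T cells. In thinned cells Lef1 was detected in 17.8% (13.6 to 22.5%) of M-I and 35.5% (30.4 to 41%) of Vehicle T cells. Tcf7 was detected in 30.6% (25.5 to 36.1%) of M-I and 40.4% (35 to 45.9%) of Vehicle T cells, and its intervals overlapped. A second draw of the thinning gave -14.5 percentage points for Tcf7, M-I minus Vehicle. Neutrophils, which should lack both genes, gave the background. They held a Lef1 UMI in 0.416% of M-I and 0.924% of Vehicle cells and a Tcf7 UMI in 0.567% and 0.975%, at median depths of 4432.5 and 4990 UMIs.

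Satb1 and Bach2, nuclear regulators of other kinds, were lower by similar ratios. Satb1, a chromatin organizer of thymocytes and T cells (chromosome 17, 51736187 to 51833290, minus strand), had 415 CPM (389 to 441) in M-I and 761 CPM (730 to 794) in Vehicle T cells. Its ratio was 0.545 (0.504 to 0.587), and thinned cells held a UMI in 42.1% of the M-I and 59% of the Vehicle library. Bach2, a repressor that restrains effector programmes (chromosome 4, 32238804 to 32586108, plus strand), had 90 UMIs or 38.1 CPM (30.6 to 46.8) in M-I and 210 UMIs or 73.4 CPM (63.8 to 84) in Vehicle T cells. Its ratio was 0.519 (0.401 to 0.667).

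Dapl1, whose transcript marks naive and central memory T cells in mice (chromosome 2, 59484653 to 59505020, plus strand), had the lowest ratio of the 8. It had 36 UMIs or 15.2 CPM (10.7 to 21.1) in M-I and 195 UMIs or 68.1 CPM (58.9 to 78.4) in Vehicle T cells, 4.47-fold lower (ratio 0.224, 0.152 to 0.32). The log2 ratio was -2.16, and it was -3.19 in thinned cells and -3.94 at a mitochondrial limit of 5%. Few cells carried it: 4.38% of M-I and 15.4% of Vehicle T cells had a UMI. No neutrophil held one, which by 3 counts allows up to 0.113% of M-I and 0.154% of Vehicle neutrophils to carry a UMI.

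By CPM over all T cells Klf2 did not differ beyond its interval, and S1pr1 was lower. Klf2, a zinc finger factor (chromosome 8, 72319033 to 72321656, plus strand), was at 1704 CPM (1652 to 1757) in M-I and 1673 CPM (1625 to 1721) in Vehicle T cells, a ratio of 1.02 (0.977 to 1.06). The side of 1 depended on the setting, with log2 ratios of -0.20 to 0.16. The share of cells with a Klf2 UMI was lower in M-I. Thinned cells held one in 64.5% (58.8 to 69.9%) of the M-I and 77.4% (72.5 to 81.8%) of the Vehicle library. A second draw of the thinning gave -7.0 percentage points for Klf2, M-I minus Vehicle. S1pr1 (chromosome 3, 115710433 to 115715072, minus strand) was at 149 CPM (133 to 165) in M-I and 219 CPM (202 to 237) in Vehicle T cells. Its ratio of 0.679 (0.594 to 0.775) lay just inside the 1.5-fold limit, and it passed the limit under 9 of 13 alternative settings. In thinned cells S1pr1 was detected in 24.7% of M-I and 30.1% of Vehicle T cells. By subset, the Klf2 interval lay below 1 in Treg (ratio 0.776, 0.679 to 0.886) and in T cells outside the named subsets (0.834, 0.776 to 0.897). S1pr1 ratios there were 0.535 (0.259 to 1.02) and 0.565 (0.458 to 0.695). The Klf2 interval also lay below 1 in CD8 T cells (0.643, 0.544 to 0.757), where thinned cells gave a ratio above 1. The S1pr1 ratio in CD8 T cells was 0.454 (0.247 to 0.787).

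Il7r (chromosome 15, 9505788 to 9530176, minus strand) was the one gene of the 8 whose interval lay above 1. It was at 1186 CPM (1142 to 1230) in M-I and 895 CPM (861 to 931) in Vehicle T cells, a ratio of 1.32 (1.25 to 1.4). Thinned cells held an Il7r UMI in 79.3% of the M-I and 68.1% of the Vehicle library. A second draw of the thinning gave 5.9 percentage points for Il7r, M-I minus Vehicle. Subset shares differed between the libraries, so the Il7r ratio was also read with subsets left out and at the Vehicle subset mix. Leaving a subset out removes its share and its own ratio together. With gamma-delta T cells left out, the log2 ratio was 0.19, against 0.41 with them, and with Treg left out it was 0.59. At the Vehicle subset mix it was 0.24. The part of subset shares in the Il7r ratio was not tested.

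The sequences before the starts of 4 of these genes are shown because Lef1 and Dapl1 had lower levels in M-I T cells while Klf2 and Il7r did not. Each runs from 250 bases before to 50 bases after the start that RefSeq gives on GRCm38.p6, and 7 of the 8 genes had such an entry. Where RefSeq gives several starts (4 windows for Lef1, 2 for Tcf7 and 5 for Satb1), the one nearest the 5′ end of the gene was read. Capitals mark matches, on either strand, to the FOXO motif TGTTTAC, the TCF and LEF motif CTTTGA or the KLF motif CCACCC.
Lef1, chr3:131110073-131110372, plus strand: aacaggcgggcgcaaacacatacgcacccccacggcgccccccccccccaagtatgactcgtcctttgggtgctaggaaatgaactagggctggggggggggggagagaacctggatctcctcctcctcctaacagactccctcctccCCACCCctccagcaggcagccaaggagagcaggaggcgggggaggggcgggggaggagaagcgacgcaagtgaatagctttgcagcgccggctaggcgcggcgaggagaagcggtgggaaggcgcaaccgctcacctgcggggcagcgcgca
Dapl1, chr2:59484403-59484702, plus strand: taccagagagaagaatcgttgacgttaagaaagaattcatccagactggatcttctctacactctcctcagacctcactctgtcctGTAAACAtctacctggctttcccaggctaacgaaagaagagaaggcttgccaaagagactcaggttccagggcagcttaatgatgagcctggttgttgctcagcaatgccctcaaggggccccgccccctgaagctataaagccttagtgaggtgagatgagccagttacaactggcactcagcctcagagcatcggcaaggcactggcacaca
Klf2, chr8:72318812-72319111, plus strand: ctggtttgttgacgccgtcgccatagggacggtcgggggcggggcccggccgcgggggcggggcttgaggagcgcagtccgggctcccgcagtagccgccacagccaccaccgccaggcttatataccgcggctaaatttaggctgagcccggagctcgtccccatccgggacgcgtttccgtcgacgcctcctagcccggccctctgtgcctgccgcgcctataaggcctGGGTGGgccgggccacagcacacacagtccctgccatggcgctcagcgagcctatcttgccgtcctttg
Il7r, chr15:9529827-9530126, minus strand: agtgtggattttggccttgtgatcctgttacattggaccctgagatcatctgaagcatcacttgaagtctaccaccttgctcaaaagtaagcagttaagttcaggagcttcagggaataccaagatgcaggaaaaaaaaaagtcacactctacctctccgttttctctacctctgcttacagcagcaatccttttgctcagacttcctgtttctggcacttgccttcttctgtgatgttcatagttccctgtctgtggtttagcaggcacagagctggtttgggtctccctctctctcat
The Lef1 window held a KLF match on the strand of the gene, and the Klf2 window held a KLF match on the opposite strand. The Dapl1 window held a FOXO match on the opposite strand. The Il7r, Tcf7 and Satb1 windows that were read held none of the 3 motifs, and the Bach2 window held a TCF and LEF match. The Bach2 and Il7r windows lay wholly inside the GENCODE spans of their genes. Of 32851 mouse windows of this length, 3.65% held the FOXO, 16% the TCF and LEF and 31.5% the KLF motif. GC content was 67.3% for Lef1, 51% for Dapl1, 69.3% for Klf2 and 45.7% for Il7r.

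The lower levels were measured within subsets as well as over all T cells. Of the 8 genes, 5 were at least 1.5-fold lower in M-I CD4 T cells (15.8% of all genes tested there) and 6 in CD8 T cells (17.5%). T cells outside the subsets had 6 of 8 lower (12.9%), Treg 3 of 6 (14.4%) and gamma-delta T cells 3 of 7 (12.5%). No gene of the 8 was at least 1.5-fold higher in any subset. Of all genes tested, 13.3% were higher in CD4, 22% in CD8, 14.3% in other T cells, 8.33% in Treg and 14.8% in gamma-delta T cells. Bach2 and Dapl1 had too few UMIs in Treg for a ratio, at 4 and 0 UMIs in M-I and 15 and 9 UMIs in Vehicle Treg. Dapl1 had no UMI in gamma-delta T cells of either library, which by 3 counts allows up to 3.03% of 99 M-I and 7.14% of 42 Vehicle cells to carry a UMI.

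**Figure D2:**
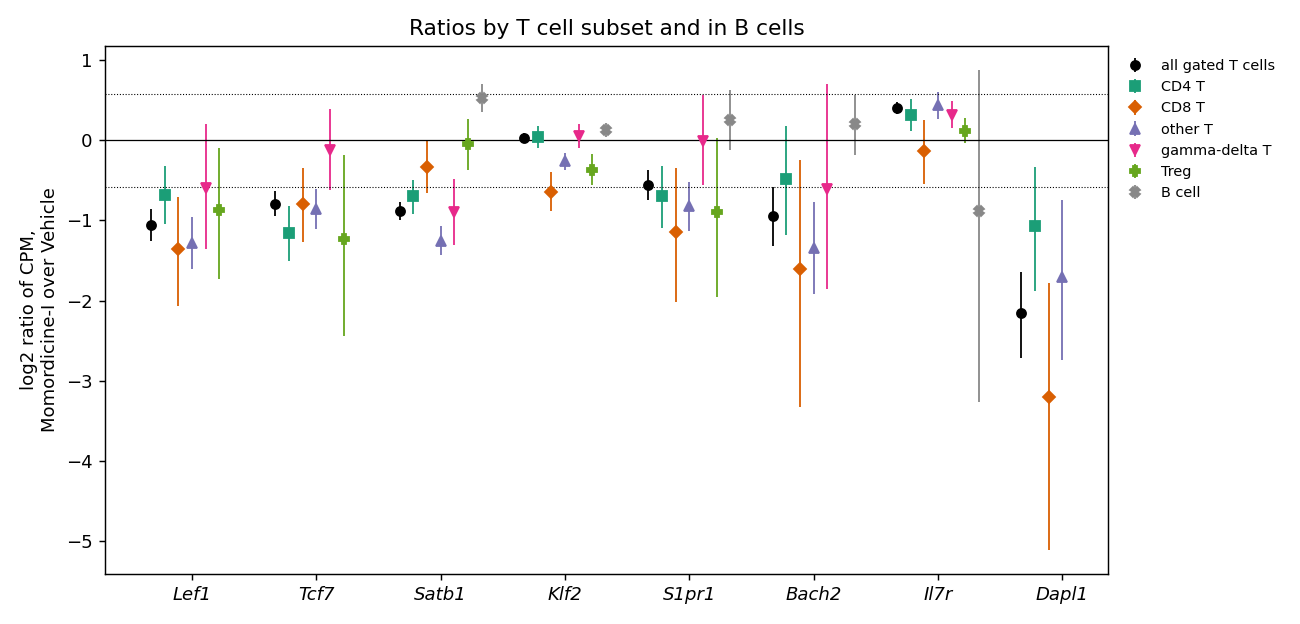
Log2 ratio of M-I to Vehicle CPM for the 8 genes in all gated T cells, in each T cell subset and in B cells. Bars are exact conditional 95% intervals, and dotted lines mark 1.5-fold. Tcf7 ratios run from 0.427 in Treg to 0.918 in gamma-delta T cells, and Il7r ratios lie above 1 in every subset but CD8 T cells (0.913).

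In CD4 T cells (47 M-I and 88 Vehicle cells), Lef1 was at 250 CPM in M-I and 400 CPM in Vehicle cells, a ratio of 0.626 (0.485 to 0.801). Tcf7 was at 264 CPM in M-I and 587 CPM in Vehicle cells (ratio 0.451, 0.355 to 0.567). S1pr1 was at 221 CPM in M-I and 360 CPM in Vehicle cells (ratio 0.614, 0.468 to 0.798). Both factors and the receptor had intervals below 1 in conventional CD4 T cells. Klf2 did not differ beyond its interval there, at 1971 CPM in M-I and 1914 CPM in Vehicle cells.

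CD8 T cells were few, with 18 M-I and 35 Vehicle cells. Dapl1 was at 22.2 CPM in M-I CD8 T cells, all 4 UMIs in 1 cell, and at 203 CPM in Vehicle CD8 T cells, with 77 UMIs in 16 cells. Klf2 was at 1070 CPM in M-I and 1664 CPM in Vehicle CD8 T cells (ratio 0.643, 0.544 to 0.757), and Lef1 at 127 CPM in M-I and 327 CPM in Vehicle CD8 T cells (ratio 0.389). The log2 ratios in thinned cells lay on the other side of 0, at 0.18 for Klf2 and 0.13 for Lef1. In another draw of the thinning, shares of cells with a UMI were lower in M-I, with overlapping intervals. Klf2 was in 66.7% (41 to 86.7%) of M-I and 82.9% (66.4 to 93.4%) of Vehicle CD8 T cells. Lef1 was in 27.8% (9.69 to 53.5%) of M-I and 48.6% (31.4 to 66%) of Vehicle CD8 T cells.

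Treg carried little of the naive factors in either library. Lef1 was at 42.4 CPM in M-I and 77.7 CPM in Vehicle Treg, and Tcf7 at 22.4 CPM in M-I and 52.5 CPM in Vehicle Treg. Satb1 was at 304 CPM in M-I and 314 CPM in Vehicle Treg (ratio 0.969), where over all T cells it was 0.545. Il7r stayed high in Treg, at 1267 CPM in M-I and 1163 CPM in Vehicle cells.

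Gamma-delta T cells had the highest Il7r level of the T cell subsets, 1849 CPM in M-I and 1477 CPM in Vehicle cells (ratio 1.25, 1.11 to 1.41), with little Lef1 (62.7 CPM in M-I and 94.2 CPM in Vehicle cells). Tcf7 was at 176 CPM in M-I and 192 CPM in Vehicle gamma-delta T cells (ratio 0.918), and S1pr1 at 150 CPM in M-I and 151 CPM in Vehicle cells (ratio 0.996). In thinned gamma-delta T cells the log2 ratio of S1pr1 was 0.91, with a UMI in 26.9% of M-I and 17.1% of Vehicle cells. Satb1 was the exception with an interval below 1, at 186 CPM in M-I and 347 CPM in Vehicle gamma-delta T cells (ratio 0.538, 0.405 to 0.716). Bach2 had 15 UMIs in M-I and 10 UMIs in Vehicle gamma-delta T cells, and its ratio of 0.657 (0.276 to 1.63) covered 1, with a log2 ratio of 0.57 when 3 lineage markers were required. The difference between subsets was not tested.

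T cells outside the 4 subsets showed the lowest Satb1 ratio of any subset, with 467 CPM in M-I and 1110 CPM in Vehicle cells (ratio 0.421). Lef1 was at 146 CPM in M-I and 355 CPM in Vehicle cells of this kind (ratio 0.411), and Bach2 at 47.1 CPM in M-I and 119 CPM in Vehicle cells (ratio 0.396). With the M-I subsets weighted to the Vehicle subset mix, the ratio over all T cells was 0.504 for Lef1, 0.531 for Tcf7, 0.611 for Satb1, 0.516 for Bach2 and 0.278 for Dapl1. At that mix S1pr1 was at 0.595, Klf2 at 0.873 and Il7r at 1.18.

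Markers of other cells were also measured in the gated T cells. All 8 neutrophil markers were detected in T cells of both libraries and summed to 361 CPM in M-I and 419 CPM in Vehicle T cells. B cell markers summed to 16.5 CPM in M-I (5 of 7 detected) and 18.9 CPM in Vehicle T cells (6 of 7), and macrophage markers to 7.19 CPM (4 of 6) and 10.8 CPM (6 of 6). ILC2 markers, all 6 detected in each library, summed to 425 CPM in M-I and 630 CPM in Vehicle T cells. Mature dendritic cell markers, one of which is Ccr7, summed to 96.9 CPM in M-I (5 of 5) and 167 CPM in Vehicle T cells (4 of 5). Other lists were higher in M-I T cells. Monocyte markers, all 6 detected in each library, summed to 632 CPM in M-I and 503 CPM in Vehicle T cells, NK cell markers (7 of 7 in each) to 165 CPM and 146 CPM, and carcinoma markers (5 of 5 in each) to 55.8 CPM and 36.7 CPM. The cDC1, fibroblast and endothelium markers were also higher in M-I T cells, none of these lists above 4.23 CPM in either library. The part of these cells in the levels of the 8 genes was not tested.

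T cells with 4 or more of the 8 genes at once were a smaller share of the M-I library, while the median was 3 genes per T cell in both. In cells thinned to 2000 UMIs, 77 of 304 M-I T cells had 4 or more of the 8 (25.3%, 20.5 to 30.6%), against 137 of 332 Vehicle T cells (41.3%, 35.9 to 46.8%). T cells with 0 or 1 of the 8 were 23% (18.4 to 28.2%) of M-I and 13.3% (9.8 to 17.4%) of Vehicle T cells. In CD4 T cells 42.2% (27.7 to 57.8%) of M-I and 57% (45.8 to 67.6%) of Vehicle cells had 4 or more. In Treg 2.33% (0.0589 to 12.3%) of M-I and 8.64% (3.55 to 17%) of Vehicle cells did, and the intervals overlapped in both subsets. They also overlapped in CD8 T cells (38.9% of M-I, 57.1% of Vehicle) and in gamma-delta T cells (20.4% of M-I, 26.8% of Vehicle). In T cells outside the subsets they did not overlap, at 29.5% (21 to 39.2%) of M-I and 56.2% (45.3 to 66.7%) of Vehicle cells.

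**Figure D3:**
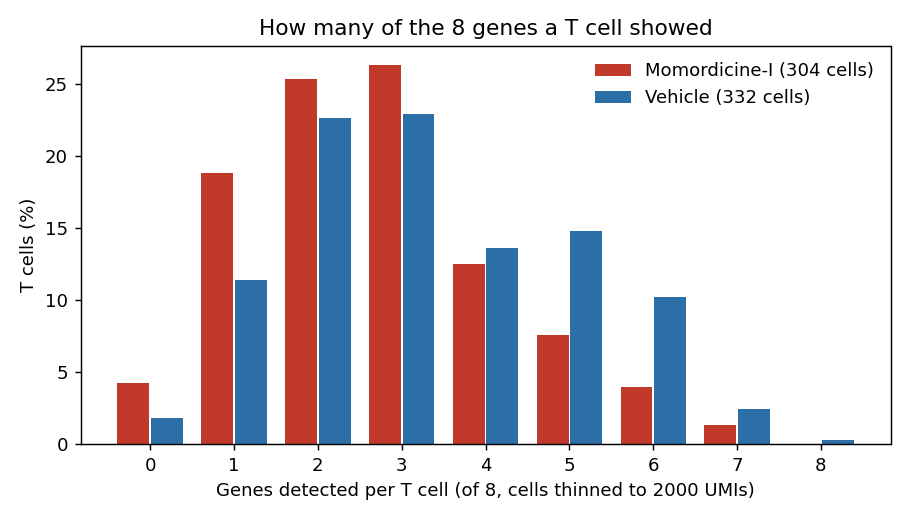
Share of gated T cells, thinned to 2000 UMIs each, by how many of the 8 genes had a UMI, with M-I in red left of Vehicle in blue. The M-I library has the larger shares at 0 to 3 genes and the Vehicle library at 4 or more.

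Some of the 8 genes occurred in the same cells. Of 28 pairs, Tcf7 with Lef1 was the pair of the 2 HMG-box factors. Tcf7 was detected in 59.3% of thinned M-I T cells with Lef1 and in 24.4% of those without it. In the Vehicle library it was detected in 61% of T cells with Lef1 and in 29% of those without it. The share of Lef1 cells that also held Tcf7 had overlapping intervals in the 2 libraries (45 to 72.4% in M-I, 51.6 to 69.9% in Vehicle), although fewer M-I T cells held Lef1. In the other direction, Lef1 was detected in 34.4% (24.9 to 45%) of M-I and 53.7% (44.9 to 62.4%) of Vehicle T cells with Tcf7. S1pr1 was likewise detected in 42.6% of M-I T cells with Lef1 and 20.8% of those without it, and in 50.8% and 18.7% in the Vehicle library. Il7r was detected in 72.2% (58.4 to 83.5%) of M-I T cells with Lef1 and 80.8% (75.4 to 85.5%) of those without it. In the Vehicle library the shares were 61% (51.6 to 69.9%) and 72% (65.4 to 77.9%), and the intervals overlapped in both libraries. Split by Tcf7 instead, Il7r was in 83.9% of M-I T cells with it and 77.3% without it. The Vehicle shares were 64.2% and 70.7%, and these intervals overlapped too. All subsets are pooled here, and their part in these shares was not tested.

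S1pr1 was also set beside Cd69, a membrane protein that pulls S1PR1 from the cell surface. In the same thinned cells it was detected in 24.4% of M-I T cells with Cd69 and 25% of those without it, and in 28.1% and 31.8% in the Vehicle library.

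Among 20 other genes of naive and recirculating T cells, 11 were at least 1.5-fold lower (9.39% of all genes tested) and none higher (8.02%) in M-I T cells, and their median log2 ratio was -0.71. This list and the lists below were chosen with earlier results of these data known, so their counts are a description and not independent support. The lists were measured over all T cells only, whose subset shares differed between the libraries. The part of subset shares in the list ratios was not tested. Igfbp4, an insulin-like growth factor binding protein, was at 71.1 CPM in M-I and 274 CPM in Vehicle T cells (ratio 0.26, 0.219 to 0.307). Actn1, an actin cross-linker, had a ratio of 0.365 (0.288 to 0.461), and Nsg2, an endosomal membrane protein of neurons, one of 0.379 (0.285 to 0.5). These 3 genes were named because their intervals lay among the farthest from 1 in the list.

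Of 29 effector and tissue residency genes, 28 had at least 20 UMIs, and 4 of them were higher (8.02% of all genes tested) and 1 lower (9.39%) by at least 1.5-fold, with a median log2 ratio of 0.03. Cxcr6, a chemokine receptor of tissue T cells, was at 336 CPM in M-I and 119 CPM in Vehicle T cells (ratio 2.83, 2.49 to 3.22). Pdcd1, which encodes the checkpoint receptor PD-1, was at 293 CPM in M-I and 139 CPM in Vehicle T cells (ratio 2.11, 1.86 to 2.39). S100a4, a calcium-binding protein of effector and memory T cells, had a ratio of 1.99 (1.88 to 2.11), and Nr4a3, a nuclear receptor induced by antigen receptor signals, one of 1.63 (1.38 to 1.93). The lower gene was Itga1, an integrin chain of resident T cells, with a ratio of 0.605 whose interval covered 1 (0.341 to 1.05). The other 23 genes of the list lay within 1.5-fold, checkpoint genes Lag3, Havcr2 and Ctla4 included.

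**Figure D4:**
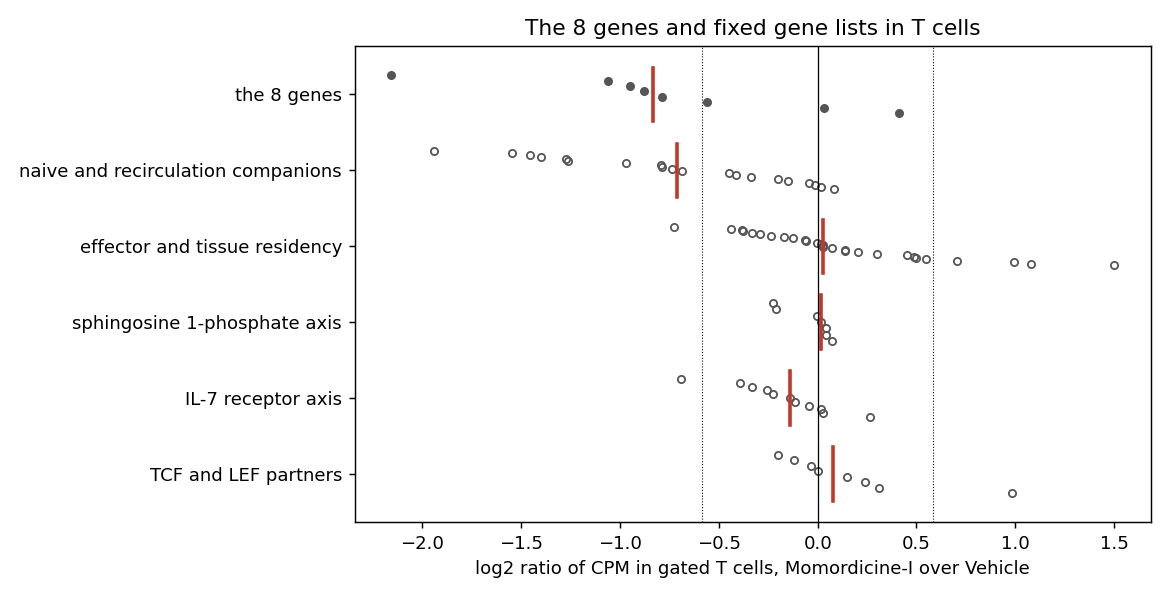
Log2 ratio of M-I to Vehicle CPM in gated T cells for the 8 genes and for each gene of 5 companion lists, 1 point per gene, with red lines at the medians and dotted lines at 1.5-fold. The naive and recirculation companions have a median of -0.71 and the effector and tissue residency genes one of 0.03.

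Partners of the 8 genes in signalling and transcription were counted against the same shares of all genes tested in T cells, 9.39% lower and 8.02% higher. In the sphingosine 1-phosphate axis, 7 of 12 genes had enough UMIs and none passed 1.5-fold in either direction (median log2 ratio 0.01). Grk2, a kinase that desensitizes S1PR1, was at 133 CPM in M-I and 156 CPM in Vehicle T cells (ratio 0.854, 0.737 to 0.989). In the IL-7 receptor axis, 1 of 11 measured genes was lower and none higher (median log2 ratio -0.14), near the share of all genes. That gene was Socs3, a brake on cytokine signalling, at 186 CPM in M-I and 301 CPM in Vehicle T cells (ratio 0.619, 0.55 to 0.695). Il2rg, the common gamma chain that pairs with the Il7r product, was at 332 CPM in M-I and 436 CPM in Vehicle T cells (ratio 0.761, 0.695 to 0.833), while Il7r itself had a ratio of 1.32. Mcl1, a survival factor, had a ratio of 0.855 (0.796 to 0.919), and Socs1, another brake on cytokine signalling, one of 0.795 (0.674 to 0.937). Of 8 measured TCF and LEF partners, 1 passed 1.5-fold, the corepressor Tle1 (median log2 ratio 0.08), also near the share of all genes. It was higher at a ratio of 1.98 (1.08 to 3.7), from 31 UMIs in M-I and 19 UMIs in Vehicle T cells. Ctbp1, another corepressor, had a ratio of 1.24 (1.03 to 1.49).

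Outside T cells, levels of the 8 genes were followed in each gated type. B cells (87 M-I and 214 Vehicle cells) carried Satb1, Klf2, S1pr1 and Bach2 but almost no Lef1, Tcf7 or Dapl1, with 5, 0 and 0 UMIs in M-I and 8, 5 and 0 UMIs in Vehicle B cells. Satb1 was at 874 CPM in M-I and 606 CPM in Vehicle B cells, a ratio of 1.44 (1.28 to 1.63), on the other side of 1 from T cells. The share of thinned B cells with a Satb1 UMI did not differ beyond its interval, at 68.7% (57.6 to 78.4%) in M-I and 64.6% (57.7 to 71.1%) in Vehicle B cells. Klf2 was at 3062 CPM in M-I and 2797 CPM in Vehicle B cells, its highest levels among T cells, B cells and neutrophils (ratio 1.09, 1.03 to 1.17). Bach2, which B cells need for germinal centre and memory fates, was at 192 CPM in M-I and 166 CPM in Vehicle B cells (ratio 1.15, 0.884 to 1.49), and S1pr1 at 192 CPM in M-I and 160 CPM in Vehicle B cells (ratio 1.2, 0.92 to 1.55). Of 5 genes with enough UMIs in B cells, 1 was lower (17.1% of all genes tested), namely Il7r with 3 UMIs in M-I and 20 UMIs in Vehicle B cells, and none was higher (12.8%). The Il7r interval covered 1 (0.104 to 1.83), and its log2 ratio was 0.19 with cells of 2 lineages kept.

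**Figure D5:**
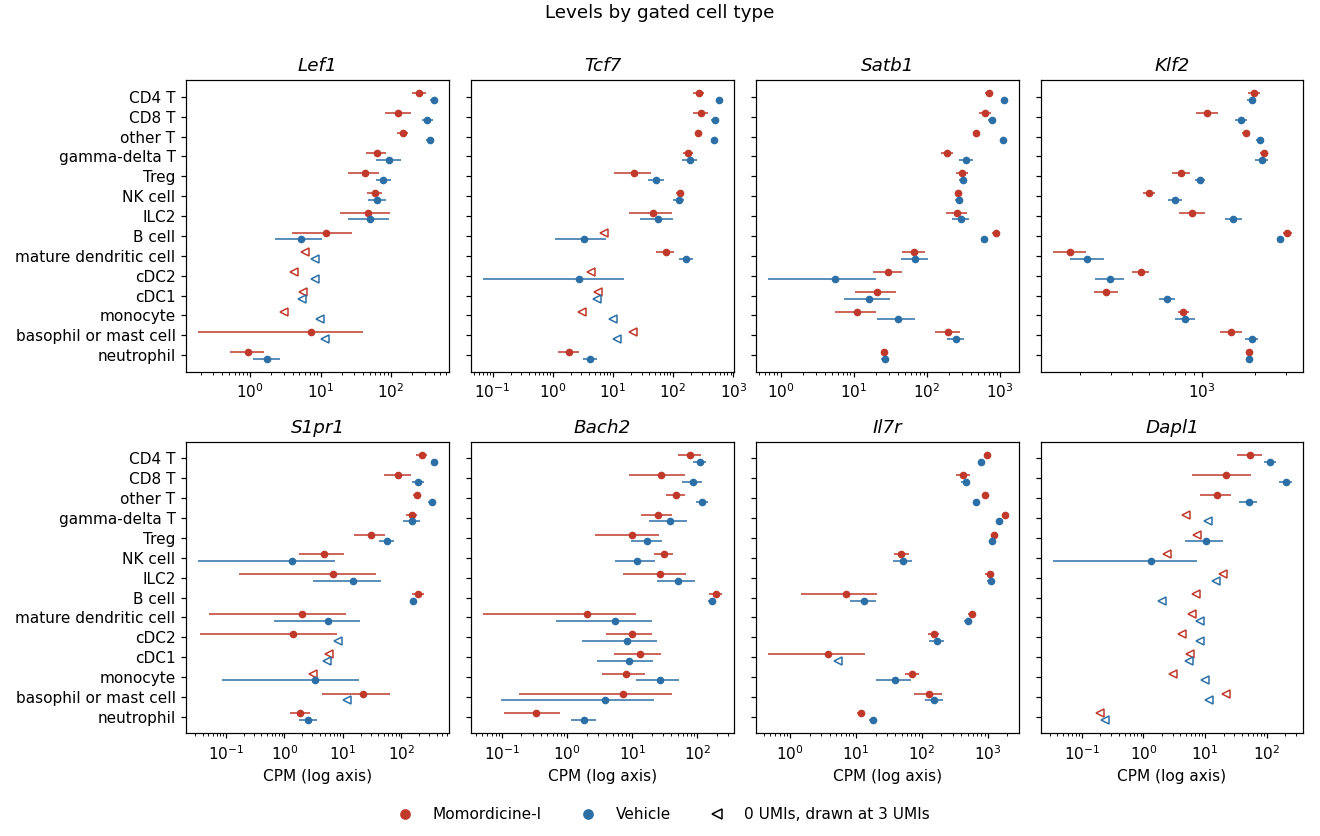
Level of each of the 8 genes by gated cell type, in CPM on a log axis, with M-I in red above Vehicle in blue and exact Poisson 95% intervals. Open triangles mark types with no UMI, drawn at the level of 3 UMIs. Klf2 is found in lymphocytes and neutrophils alike, and Lef1 and Dapl1 are nearly limited to T cells and, for Lef1, NK cells and ILC2.

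Neutrophils, 2644 M-I and 1948 Vehicle cells, gave the deepest measure of Klf2. It was at 1841 CPM in M-I and 1846 CPM in Vehicle neutrophils (ratio 0.997, 0.98 to 1.01), with a UMI in 79.5% and 83.5% of cells. Satb1 was at 25.9 CPM in M-I and 26.4 CPM in Vehicle neutrophils. Of 7 genes with enough UMIs, 4 were at least 1.5-fold lower in M-I neutrophils (6.03% of all genes tested) and none higher (12.2%). The lower ones were Lef1, Tcf7, Bach2 and Il7r, none above 12.1 CPM in M-I or 18.2 CPM in Vehicle neutrophils and none in more than 4.88% of cells. Lef1 and Tcf7 were read as background in neutrophils above. The Lef1 interval covered 1 (0.252 to 1.09), and those of the other lower genes lay below 1. In Vehicle neutrophils 1 cell held 16 of the 53 Tcf7 UMIs, and 1 cell held 7 of the 23 Bach2 UMIs.

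Cells gated on carcinoma markers, 216 in the M-I and 83 in the Vehicle library, had enough UMIs for 3 of the 8 genes. None was lower (16.6% of all genes tested) and 1 was higher (16.1%), S1pr1 with 19 UMIs in M-I and 1 UMI in Vehicle cells (ratio 4.82, 0.767 to 200). Its interval covered 1, and 1 M-I cell held 13 of the 19 UMIs. Klf2 was at 391 CPM in M-I and 472 CPM in Vehicle carcinoma cells (ratio 0.828, 0.721 to 0.954), and Tcf7 had a ratio of 1.33 (0.45 to 5.34).

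NK cells, 76 in the M-I and 41 in the Vehicle library, had too few Vehicle cells for a ratio. Tcf7 was at 129 CPM in M-I and 125 CPM in Vehicle NK cells, Lef1 at 58.8 CPM and 63.6 CPM, and Satb1 at 267 CPM and 276 CPM. Their Poisson intervals overlapped for all 3 factors, unlike in T cells. Klf2 was at 499 CPM (461 to 540) in M-I and 700 CPM (641 to 762) in Vehicle NK cells, and its intervals did not overlap. S1pr1 had 6 UMIs in M-I and 1 UMI in Vehicle NK cells. ILC2, group 2 innate lymphoid cells, numbered 19 in the M-I and 28 in the Vehicle library and carried Il7r in 18 and 26 cells, at 1077 CPM in M-I and 1129 CPM in Vehicle ILC2.

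Across 13 points, each a T cell subset, another cell type or the same in the other library with at least 50 cells, the genes whose log2 CPM followed each of the 8 most closely were ranked by Pearson's r. The points share depth and library, so r is a description. Lef1 was followed most closely by Inpp4b (0.957) and Trbc2 (0.944), and Tcf7 by Skap1 (0.971), Aak1 (0.960) and Dnaja4 (0.937). For Satb1 they were Scml4 (0.979), Gimap6 (0.974) and Slamf6 (0.973), and for Klf2 Klhl24 (0.951), Sfswap (0.946) and Tob1 (0.945). S1pr1 had Dtx1 (0.964), Snhg8 (0.963) and Ttc14 (0.956), and Bach2 had Srsf6 (0.968), Rps27 (0.966) and Mdn1 (0.966). Il7r had Cd3d (0.959), Icos (0.952) and Tnfrsf25 (0.95), and Dapl1 had Nsg2 (0.946), Trac (0.915) and Themis (0.915). Among the points, Dapl1 had UMIs only in Vehicle CD4 T cells, Vehicle Treg and, in both libraries, T cells outside the subsets. CD8 T cells were too few to be a point. Trbc2, Trac and Cd3d were also used to gate T cells.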

How the data were processed

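The authors deposited whole-number UMI counts per gene and barcode, 1 matrix for the Momordicine-I (M-I) and 1 for the Vehicle library. Per the labels, the chemistry was 10x 3' v3.1. The submitters' processing notes name mm10 and Cell Ranger 6.0.2. Barcodes under 200 genes (26 M-I, 25 Vehicle) or over 10% mitochondrial UMIs (322 M-I, 274 Vehicle) were left out. Cells matching lineages of different families (553 M-I, 391 Vehicle), tied cells (131 and 97) and cells with under 2 markers (101 and 75) were left ungated. The family rule was set after gate sizes were seen. Scrublet's automatic threshold marked 1 M-I and 2 Vehicle cells and had not worked, so no doublets were removed in the reported values. Removing the highest scores at 0.8% per 1000 barcodes (164 M-I, 98 Vehicle) is an alternative.

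UMIs were summed per type and library and scaled to CPM over all genes of the sum, with exact Poisson intervals. Ratios, M-I over Vehicle, have exact conditional binomial intervals and shares exact Clopper-Pearson intervals. UMIs are taken as independent, so intervals leave out variation between cells and mice. A ratio needed 20 UMIs over both libraries and, outside T cells, 50 cells in each. A gene was called at 1.5-fold. A count of 0 allows up to 3 counts. The ratio code was tested on simulated data. Named genes were the 8, up to 4 per list with at least 20 UMIs whose ratio interval lay farthest from 1, and for each of the 8 the 3 genes with the highest r among 5573 with at least 50 CPM in 1 or more points. Some genes that this rule names are not reported here. The Tcf7 and Il7r values in mature dendritic cells were singled out after they were seen. The 8 genes and the lists were chosen with earlier results of these data known. Alternatives covered the CPM denominator, scaling, thinning, the mitochondrial limit, doublets, the gate, the highest cell, the subset mix, the fold limit and the UMI minimum. Python 3.11.15, numpy 2.4.6, scipy 1.17.1, pandas 2.3.3, scanpy 1.11.5 and matplotlib 3.10.9 were used.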

Additional observations from a re-analysis of the deposited data

Results flagged for a closer look

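Satb1 lay on opposite sides of 1 in T cells and B cells. In T cells the ratio of M-I to Vehicle was 0.545 (0.504 to 0.587), and in B cells it was 1.44 (1.28 to 1.63). Over the alternatives the log2 ratio ran from -1.13 to -0.70 in T cells and from 0.18 to 0.77 in B cells. The difference between the cell types was not tested. By share of B cells with a Satb1 UMI the libraries were at 81.6% (M-I) and 86.9% (Vehicle), and after thinning at 68.7% (57.6 to 78.4%) and 64.6% (57.7 to 71.1%), so the higher level was not seen as a clear difference in shares. Monocyte markers summed to 26.4 CPM in M-I (4 of 6 detected) and 201 CPM in Vehicle B cells (5 of 6), and mature dendritic cell markers to 975 CPM (4 of 5) and 548 CPM (4 of 5). Median depth was 4691 UMIs in M-I and 6000 UMIs in Vehicle B cells. The part of depth and of these markers in the result was not tested.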

How the results depend on the processing

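Lef1, Tcf7, Satb1, S1pr1, Bach2 and Dapl1 were below 1 and Il7r above 1 in T cells under all 13 alternatives for each gene. S1pr1 was past 1.5-fold under 9 of them. The count of lower genes was 5 or 6 except at a fold limit of 2, where it was 2 (3.18% of all genes tested). In log2 ratios, leaving out Treg, added after the data were seen, gave -1.26 for Lef1, -1.0 for Tcf7, -1.13 for Satb1, -0.06 for Klf2 and 0.59 for Il7r. Leaving out gamma-delta T cells, also added, gave -0.70 for Satb1, -0.10 for Klf2 and 0.19 for Il7r. The Vehicle subset mix gave -0.71 for Satb1, -0.20 for Klf2 and 0.24 for Il7r. The mean of the cells' own CPM gave -1.0 for Satb1 and 0.12 for Klf2, thinned cells 0.16 for Klf2 and -3.19 for Dapl1, and a mitochondrial limit of 5% -1.03 for Satb1 and -3.94 for Dapl1. With cells of 2 lineages kept, Klf2 was at -0.08. The cause was not tested, beyond the different cells that each setting holds. Elsewhere 4 called ratios reversed: Lef1 (0.13) and Klf2 (0.18) in thinned CD8 T cells, Bach2 in gamma-delta T cells at 3 lineage markers (0.57) and Il7r in B cells with cells of 2 lineages kept (0.19). Median-of-ratios scaling shifted all T cell ratios by 0.01. Low UMI counts limit Dapl1 and Bach2, and the number of cells (18 M-I, 35 Vehicle) limits every gene in CD8 T cells. No paired analysis was possible because there was 1 library per group.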

Other observations

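Mature dendritic cells, 30 in the M-I and 19 in the Vehicle library, carried Il7r and Tcf7 with almost no T cell receptor RNA. Il7r was at 579 CPM in M-I (28 of 30 cells) and 511 CPM in Vehicle mature dendritic cells (16 of 19 cells), with overlapping intervals of 513 to 650 CPM and 440 to 590 CPM. Tcf7 was at 75.1 CPM (52.9 to 104) in M-I and 166 CPM (126 to 213) in Vehicle mature dendritic cells, in 12 and 8 cells. None of the 6 T cell markers had more than 1 UMI in these cells of either library, and Lef1 had 0 UMIs in both.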
